A study of Mus musculus with 6 samples.

Results

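Of the 27179 genes counted in this mouse mRNA-seq experiment, 10 genes of the epidermal growth factor (EGF) receptor system were followed. They encode 3 receptors (Egfr, Erbb2 and Erbb3), 3 ligands (Hbegf, Areg and Ereg), the 3 LRIG membrane proteins (Lrig1, Lrig2 and Lrig3) and a cytoplasmic receptor inhibitor (Errfi1). The genes were chosen by symbol, matched to NCBI Gene identifiers, around Lrig1. Lrig1 itself was selected on its lower level in both lines that express a CRY protein, so its differences from the parental line are described without a test. Of the 10 genes, 9 passed the filter on low counts, and Areg did not.

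The libraries came from 3 mouse embryonic fibroblast (MEF) lines, with 2 libraries from separate RNA preparations of each. The parental line, CPN-/-, is labelled Cry1-/-, Cry2-/-, Per1-/-, Per2-/-, Nr1d1-/- and Nr1d2-/-, and both derived lines share these knockouts. CPN-/- CRY1 and CPN-/- CRY2 carry in addition a mouse Cry1 or Cry2 sequence brought in by a virus and driven by a viral promoter. The cells had no treatment, were grown in DMEM with serum and were lysed before confluence. CRY1 and CRY2 are repressors of CLOCK-BMAL1, the activator of the circadian clock, and the comparisons ask which mRNAs differ when either is put back without PER and NR1D proteins. Each CRY line was selected as single colonies, so a difference between lines and a difference between clones cannot be told apart. P-values measure the spread between the RNA preparations of a line.

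EGF receptor family members are tyrosine kinases at the cell surface that pair up when a ligand binds and then signal to growth, survival and migration. EGFR binds EGF, HB-EGF, amphiregulin, epiregulin and related ligands, ERBB2 has no known ligand of its own and acts as a partner, and ERBB3 binds neuregulins and has a weak kinase. The system is held back by its own inhibitors: LRIG1 lowers receptor levels at the membrane, and MIG6, the product of Errfi1, binds the active kinase domain from inside the cell.

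Total counts lay between 25957409 and 36106949 per library. Levels are given as CPM, counts rescaled to a common library size with factors from the trimmed mean of M-values (TMM). These factors were between 0.9912 and 1.0128. Cry1 mRNA was 125 and 115 CPM in CPN-/-, 165 and 189.6 CPM in the CRY1 line, and 51.0 and 48.3 CPM in the CRY2 line. Cry2 mRNA was 136 and 129 CPM in CPN-/-, 50.7 and 51.7 CPM in the CRY1 line, and 349 and 351 CPM in the CRY2 line. Each introduced gene was thus highest in the line named for it, while transcripts of the disrupted genes were still counted in CPN-/-. The 10 fibroblast markers summed to between 11160 and 17840 CPM, although Thy1 stayed under 1 CPM in all 6 libraries and Dcn in those of CPN-/- and the CRY1 line. Epithelial, endothelial and leucocyte markers each summed to at most 2.17 CPM in any library. Among the fibroblast markers, Pdgfra (-1.31, adjusted p = 0.0015) and Dcn (-2.92, adjusted p = 0.009) were lower and Pdgfrb (0.89, adjusted p = 0.01) higher in the CRY1 line than in CPN-/-, as log2 fold changes from edgeR, and Dcn was higher in the CRY2 line (1.44, adjusted p = 0.039). The smooth muscle markers summed to 1412 and 1790 CPM in CPN-/-, 5310 and 5121 CPM in the CRY1 line, and 2144 and 2384 CPM in the CRY2 line. That sum was carried by Acta2 and Tagln, while Des was lower in the CRY1 line than in CPN-/- (-1.13, adjusted p = 0.027) and Cnn1 had 8 and 7 counts in CPN-/- and 2 and 3 in each CRY line. The part of these markers in the results that follow was not tested. Fewer cells of a type and less RNA per cell cannot be told apart in such bulk libraries. The 2 CPN-/- libraries differed most, with an SD across genes of 0.44 for the log2 difference between them, against 0.23 and 0.24 in the CRY1 and CRY2 lines.

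Genes with an adjusted p under 0.05 are said to pass the test, and the words rose and fell are kept for them. Libraries that do not overlap are common with 2 libraries per line. In the CRY1 line against CPN-/-, 34% of all genes had both CRY1 libraries below and 32.9% above both CPN-/- libraries. In the CRY2 line against CPN-/- these shares were 27.2% and 28%, and in the CRY1 line against the CRY2 line they were 36.9% and 36.4%. Overlap between the libraries of single genes is therefore given as description.

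Egfr mRNA was low in every line and lowest in the lines with CRY proteins. The Egfr gene (Gene ID 13649) lies on chromosome 11 at 16752203-16913907 of mm10, on the plus strand, with 28 exons in its longest coding transcript. It had 84 and 36 counts in the CPN-/- libraries, 8 and 10 in the CRY1 line, and 4 and 1 in the CRY2 line. As levels these were 2.64 and 1.38 CPM, 0.221 and 0.324 CPM, and 0.147 and 0.0371 CPM. The libraries of CPN-/- did not overlap with those of either CRY line, and the higher of the CRY2 values lay below both CRY1 values. Egfr passed the filter on low counts through CPN-/- alone, since neither CRY line had a library above its limit of 0.343 CPM, so a difference between CPN-/- and the CRY lines was to some extent a condition for being tested. Its differences from CPN-/- are therefore described without a p-value. The fitted log2 difference, from the quasi-likelihood model of edgeR, was -2.90 (standard error, SE, of 0.47) in the CRY1 line and -4.41 (SE 0.60) in the CRY2 line. From the summed counts, the CPN-/- level was 7.72 times that of the CRY1 line (95% interval 4.68 to 13.5) and 22.5 times that of the CRY2 line (9.37 to 70.5). These intervals cover counting error only. Between the CRY lines, with 18 counts against 5, the log2 difference of Egfr was 1.504 (95% interval -0.56 to 3.57), which did not pass the test (adjusted p = 0.30 over 14069 genes by the Benjamini-Hochberg method).

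The genome sequence before the Egfr start site is shown because this receptor had the largest fold change of the 10 genes. CLOCK-BMAL1 binds the E-box, CACGTG, and less strongly the related E'-box, CACGTT or AACGTG on the other strand. Neither was found in the window from 250 bases before to 50 bases after the RefSeq start site of Egfr. No match means only that these letters are not in this window. The stretch from position -250 to -1, chr11:16751953-16752202 of mm10 (GRCm38.p6), plus strand, reads 5′ to 3′ in lower case.
Egfr: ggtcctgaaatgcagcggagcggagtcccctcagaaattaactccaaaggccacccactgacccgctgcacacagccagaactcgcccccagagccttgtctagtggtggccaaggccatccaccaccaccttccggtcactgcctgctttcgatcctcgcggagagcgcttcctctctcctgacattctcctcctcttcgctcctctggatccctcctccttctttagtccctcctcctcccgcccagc

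Erbb2, the partner receptor, was the most abundant of the receptor genes and the only one of them that rose in a CRY line. It lies on the same chromosome at 98412484-98437716, plus strand, and 9 bases of its exons overlap Mien1 on the other strand. Erbb2 was at 46.8 and 39.6 CPM in CPN-/-, 58.3 and 57.4 CPM in the CRY1 line, and 40.0 and 40.9 CPM in the CRY2 line. Both CRY1 libraries exceeded the other 4, and the CRY2 values fell within the range of CPN-/-. Erbb2 rose by a log2 value of 0.42 (SE 0.11, adjusted p = 0.034) in the CRY1 line against CPN-/-. Against the same libraries, the log2 difference of the CRY2 line was -0.10 (95% interval -0.36 to 0.17, adjusted p = 0.60). Set directly against each other, the CRY lines differed by 0.52 (SE 0.11, adjusted p = 0.022), higher in the CRY1 line. Leaving out any single library kept the log2 difference of the CRY1 line between 0.31 and 0.55 against CPN-/-. Against the CRY2 line it stayed between 0.50 and 0.53. In neither comparison did Erbb2 pass the threshold without any one of the 4 CRY libraries. A lone library gives no spread for its line, so no p-value is given.

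Erbb3, the neuregulin receptor, had few counts and no difference that passed the test. The gene is on chromosome 10 at 128567523-128589635, minus strand. Its level was 1.57 and 0.883 CPM in CPN-/-, 1.63 and 1.27 CPM in the CRY1 line, and 1.03 and 0.741 CPM in the CRY2 line, from 20 to 59 counts per library. The CPN-/- libraries spanned most of the range of the other 4. The log2 differences were 0.22 in the CRY1 line (95% interval -0.54 to 0.98), -0.49 in the CRY2 line (-1.34 to 0.36) and 0.72 between the CRY lines (-0.10 to 1.53), with adjusted p-values of 0.63, 0.41 and 0.22.

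Levels of different genes were compared per kilobase (kb) of summed exon length. Within the receptors, Erbb2 made up 94.8% to 98.4% of the summed CPM per kb in each library. The share of Egfr was 2.46% and 1.55% in CPN-/-, 0.17% and 0.255% in the CRY1 line, and 0.165% and 0.041% in the CRY2 line. Erbb4, the remaining receptor of the family, had 0 or 1 count in every library and was not tested.

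Hbegf, which encodes a membrane-anchored ligand of EGFR and ERBB4, fell in the CRY1 line. It lies on chromosome 18 at 36504927-36515805, minus strand. The level was 28.6 and 27.8 CPM in CPN-/-, 15.1 and 20.0 CPM in the CRY1 line, and 22.0 and 20.4 CPM in the CRY2 line. Every library of the CRY lines was below both CPN-/- libraries, and the CRY1 libraries were below those of CRY2. Hbegf fell in the CRY1 line by 0.69 on the log2 scale (SE 0.15, adjusted p = 0.018). The log2 difference in the CRY2 line was -0.41 (95% interval -0.76 to -0.06, adjusted p = 0.16), and that between the CRY lines was -0.27 (-0.63 to 0.08, adjusted p = 0.27). Leaving out any single library kept the log2 difference in the CRY1 line between -0.90 and -0.50. Hbegf did not pass there without replicate 1 of the CRY1 line or without either CRY2 library. In the CRY2 line, leaving out any single library kept the log2 difference between -0.46 and -0.35.

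Ereg and Areg, the genes of epiregulin and amphiregulin, are neighbours on chromosome 5, at 91074617-91093649 and 91139599-91148432 on the plus strand, 45.9 kb apart. Their levels were far apart. Ereg was at 23.0 and 19.8 CPM in CPN-/-, 18.3 and 23.5 CPM in the CRY1 line, and 17.5 and 17.2 CPM in the CRY2 line. The CPN-/- and CRY1 libraries overlapped, and the CRY2 libraries were below all the others. The log2 differences were -0.04 in the CRY1 line (95% interval -0.39 to 0.32), -0.30 in the CRY2 line (-0.66 to 0.05) and 0.27 between the CRY lines (-0.09 to 0.62), and none passed the test (adjusted p = 0.88, 0.26 and 0.29). Leaving out any single library kept the log2 difference of Ereg in the CRY2 line between -0.40 and -0.19. Exons of Ereg overlap 141 bases of Gm19610 on the other strand, and the strand setting of the counting is not given in the sources used here.

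Areg had 4 and 2 counts in CPN-/-, 1 and 1 in the CRY1 line, and 1 and 0 in the CRY2 line. A count of 0 allows a level of up to 3 counts, which is 0.083 to 0.115 CPM over the libraries. From the summed counts, CPN-/- had 3.47 times the level of the CRY1 line (95% interval 0.621 to 35.2) and 5.62 times that of the CRY2 line (0.682 to 258.5). Both intervals include 1, so a difference in Areg was not detectable at this depth.

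**Figure D1:**
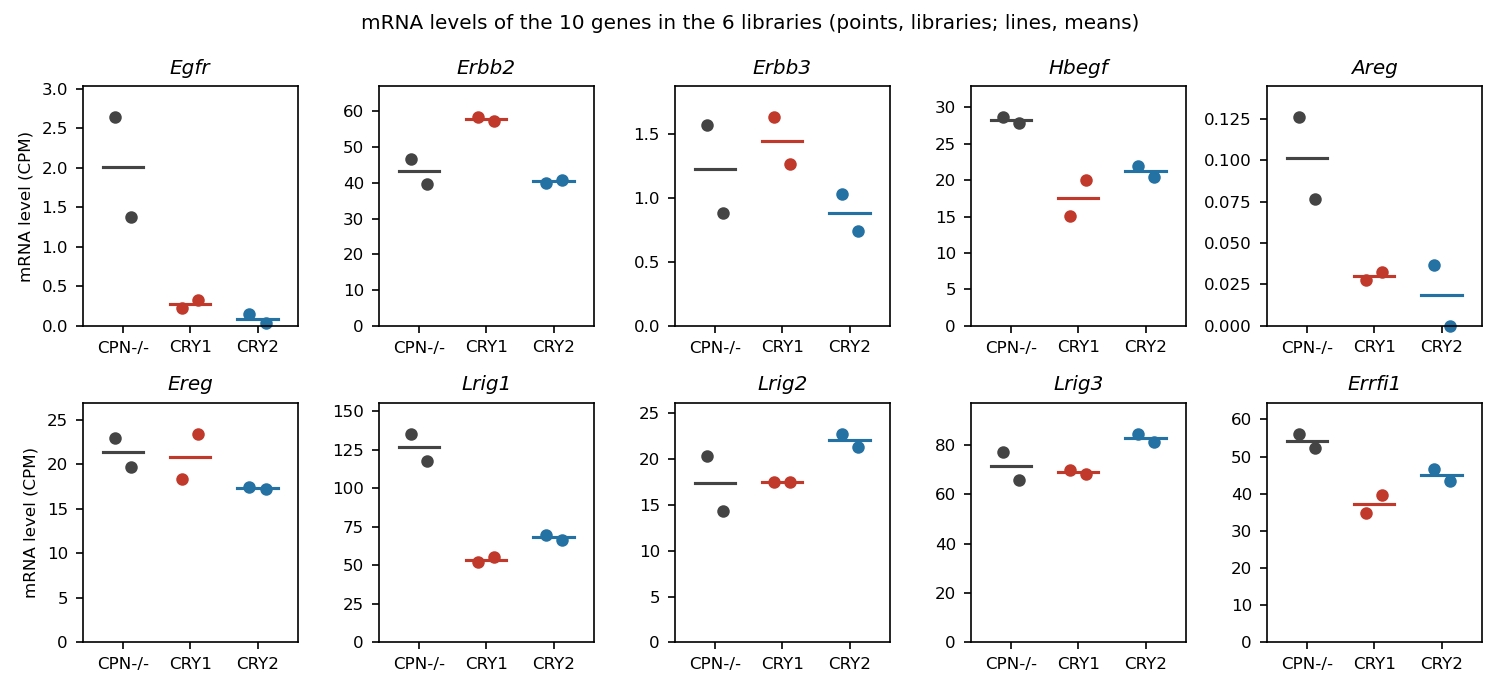
mRNA level of each of the 10 genes in CPM (vertical axes, linear from 0, separate scale per gene) in the parental, CRY1 and CRY2 lines; points are the 2 libraries of a line and lines are their means. Lrig1, Egfr, Hbegf and Errfi1 have both CPN-/- libraries above the other 4, as does Areg with only 0 to 4 counts per library. Erbb2 has both CRY1 libraries above the other 4.

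Lrig1 had the highest level per kb of exon among the LRIG genes in every line, and its level was lower in both CRY lines. LRIG1 is known to bind receptors of the EGF family and to promote their degradation. The gene (Gene ID 16206) is on chromosome 6 at 94604529-94700298, minus strand, with 19 exons in its longest coding transcript. It was at 135 and 118 CPM in CPN-/-, 52.3 and 55.2 CPM in the CRY1 line, and 69.7 and 66.6 CPM in the CRY2 line. The 3 lines did not overlap, with CPN-/- highest and the CRY1 line lowest. The log2 difference from CPN-/- was -1.24 in the CRY1 line and -0.89 in the CRY2 line, values that belong to the choice of the gene and carry no test. Leaving out any single library kept these between -1.33 and -1.13, and between -0.98 and -0.79. Between the CRY lines, a contrast not used for the choice, Lrig1 had a log2 difference of -0.34 in the CRY1 line against the CRY2 line (95% interval -0.59 to -0.09), which did not pass the test (adjusted p = 0.073). That difference passed when only the 4 CRY libraries were fitted (adjusted p = 1.9e-05) and after removal of a trend with transcript length (0.021). It also passed without replicate 1 or 2 of CPN-/-, fits in which a lone library gives no spread for its line. In the other 12 of 16 alternatives it did not pass. Exons of Lrig1 share 144 bases with Slc25a26 on the other strand.

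Lrig2 and Lrig3, the paralogs of Lrig1, did not pass the test in any of the 3 comparisons. Lrig2 is on chromosome 3 at 104453980-104511918, minus strand, and Lrig3 on chromosome 10 at 125966219-126015359, plus strand. Lrig2 was at 20.4 and 14.4 CPM in CPN-/-, 17.5 and 17.6 CPM in the CRY1 line, and 22.8 and 21.4 CPM in the CRY2 line. Lrig3 was at 77.2 and 65.6 CPM in CPN-/-, 69.8 and 68.4 CPM in the CRY1 line, and 84.5 and 81.2 CPM in the CRY2 line. For both genes the CRY1 values lay within the range of the CPN-/- libraries, and the CRY2 values were above all the others. The log2 difference of Lrig2 was 0.01 in the CRY1 line (95% interval -0.39 to 0.41, adjusted p = 0.98) and 0.34 in the CRY2 line (-0.06 to 0.74, adjusted p = 0.26). For Lrig3 it was -0.05 in the CRY1 line (-0.30 to 0.21, adjusted p = 0.76) and 0.21 in the CRY2 line (-0.04 to 0.47, adjusted p = 0.27).

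Set against the CRY2 line, the CRY1 line had log2 differences of -0.33 for Lrig2 (95% interval -0.73 to 0.07) and -0.26 for Lrig3 (-0.52 to -0.004), with adjusted p-values of 0.24 and 0.16. The median of the 638 tested genes on chromosome 3, which carries Lrig2, was -0.40 in this comparison and -0.28 in the CRY1 line against CPN-/-, against 0.01 and 0.00 for genes elsewhere. In the same order, the medians were -0.16 and -0.05 on chromosome 10, which carries Lrig3, and -0.12 and -0.13 on chromosome 6, which carries Lrig1. Genes elsewhere had medians between -0.01 and 0.00. In the CRY2 line against CPN-/-, the medians of chromosomes 3 and 10 were 0.11 each, and that of chromosome 6 was -0.02. The part of these chromosome-wide shifts in the values of the LRIG genes was not tested. The CPN-/- libraries also bear on these genes. Without replicate 1 of CPN-/-, the log2 difference of Lrig2 was 0.28 in the CRY1 line and 0.62 in the CRY2 line. That of Lrig3 in the CRY2 line was then 0.34. A lone CPN-/- library gives no spread for that line, so no test is read from these values.

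Per kb of exon, the LRIG genes ranked Lrig1, Lrig3, Lrig2 in each of the 6 libraries, but their proportions differed. Lrig1 was 2.62 and 2.69 times Lrig3 in the CPN-/- libraries, 1.12 and 1.21 times in the CRY1 line, and 1.23 and 1.22 times in the CRY2 line. It made up 68.8% and 69.9% of the summed LRIG level in CPN-/-, 48.7% and 50.5% in the CRY1 line, and 50.9% and 50.8% in the CRY2 line. The summed level was 35.2 and 30.2 CPM per kb in CPN-/-, 19.2 and 19.6 in the CRY1 line, and 24.5 and 23.5 in the CRY2 line. These ratios within a library rest on the same Lrig1 values that chose the gene and are given as description.

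**Figure D2:**
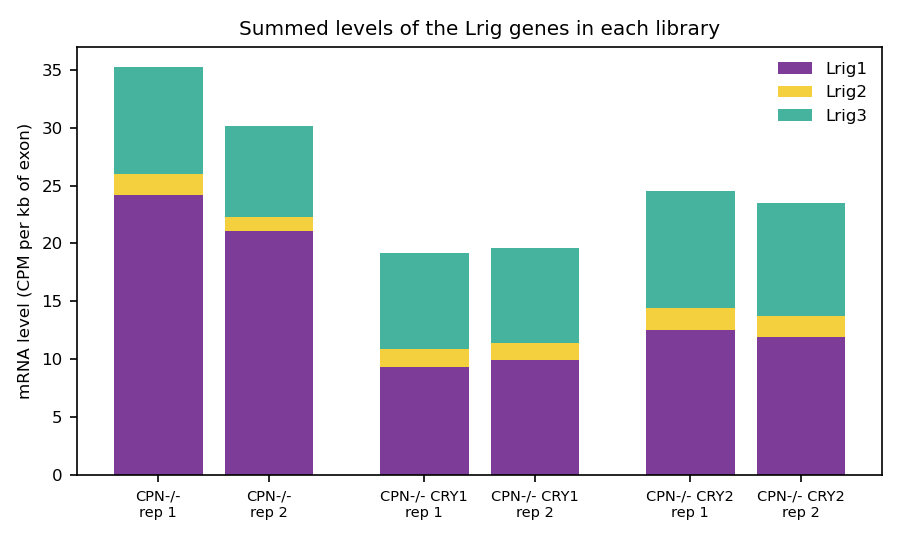
Summed mRNA level of Lrig1, Lrig2 and Lrig3 in each of the 6 libraries, in CPM per kb of summed exon length (vertical axis from 0; stacked colours are the genes). The bars are 35.2 and 30.2 in CPN-/- and between 19.2 and 24.5 in the CRY lines, and the Lrig1 segment differs more than those of its paralogs.

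The sequences before the window start sites of the LRIG genes are shown so that the clock motif of the Lrig1 window can be set beside its paralogs. Among 32851 RefSeq promoter windows of 300 bases, 7.15% held the E-box CACGTG and 4.68% held an E'-box, on either strand. Windows matched 7 of the 10 genes, and Erbb3, Hbegf and Ereg had none. Lrig3 had 1 E-box, its first base at -98 from the start site. Lrig1 had 1 E'-box, read as AACGTG, at -131 from the start site of its window. That window, 94700096-94700395, overlaps the gene as placed above, which ends at 94700298 on the minus strand. The AACGTG and part of the stretch shown therefore lie inside the gene span of Lrig1. The stretches of Lrig2 and Lrig3 lie before their genes, so the positions are not alike. Lrig2 had neither, nor did Erbb2 and Areg, and the second of the windows of Errfi1 had CACGTT at -45. A match is a description of the sequence and says nothing of binding in these cells. The stretches run 5′ to 3′ on the strand of the gene, stop short of annotated exons, and show the motif in capitals. They are chr6:94700159-94700395 (minus strand) for Lrig1, chr3:104511919-104512168 (minus strand) for Lrig2 and chr10:125965969-125966167 (plus strand) for Lrig3, in GRCm38.p6 (mm10).
Lrig1: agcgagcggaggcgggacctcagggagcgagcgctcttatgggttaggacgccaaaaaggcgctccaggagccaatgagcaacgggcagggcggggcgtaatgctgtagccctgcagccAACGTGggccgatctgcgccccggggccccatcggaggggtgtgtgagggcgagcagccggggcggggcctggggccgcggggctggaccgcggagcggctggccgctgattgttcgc
Lrig2: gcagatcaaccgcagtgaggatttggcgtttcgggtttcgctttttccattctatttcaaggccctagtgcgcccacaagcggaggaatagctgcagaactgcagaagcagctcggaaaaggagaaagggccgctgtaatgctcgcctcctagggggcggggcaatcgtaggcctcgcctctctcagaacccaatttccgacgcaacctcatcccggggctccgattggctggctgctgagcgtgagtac
Lrig3: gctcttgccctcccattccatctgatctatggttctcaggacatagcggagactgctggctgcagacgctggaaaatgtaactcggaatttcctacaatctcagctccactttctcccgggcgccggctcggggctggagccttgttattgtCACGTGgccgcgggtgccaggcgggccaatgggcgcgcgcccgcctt

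Errfi1 encodes MIG6, an inhibitor whose transcription is itself switched on by EGF receptor signalling, and it fell in the CRY1 line. The gene is on chromosome 4 at 150853796-150868889, plus strand. It was at 56.2 and 52.5 CPM in CPN-/-, 34.8 and 39.7 CPM in the CRY1 line, and 46.6 and 43.6 CPM in the CRY2 line. The 3 lines did not overlap and had the order of Lrig1, with CPN-/- highest and the CRY1 line lowest. Errfi1 fell in the CRY1 line by 0.55 on the log2 scale (SE 0.11, adjusted p = 0.014). The log2 difference was -0.27 in the CRY2 line (95% interval -0.53 to -0.01, adjusted p = 0.19) and -0.28 between the CRY lines (-0.54 to -0.02, adjusted p = 0.14). Leaving out any single library kept the log2 difference in the CRY1 line between -0.64 and -0.45. Errfi1 did not pass there without either CRY1 library or without either CRY2 library. In the CRY2 line, leaving out any single library kept the log2 difference between -0.31 and -0.21.

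Across the group, 4 of 8 members tested had an adjusted p under 0.05 in the CRY1 line against CPN-/-, with Egfr, Hbegf and Errfi1 lower and Erbb2 higher. Of all 14069 genes tested, 24.3% passed in that comparison (13.1% lower and 11.2% higher). In the CRY2 line against CPN-/-, 1 of 8 members tested had an adjusted p under 0.05, Egfr, against 6.66% of all genes (4.08% lower and 2.58% higher). In the CRY1 line against the CRY2 line, 1 of 9 members passed, Erbb2, against 16.3% of all genes (8.57% lower and 7.72% higher). The counts against CPN-/- leave out Lrig1 and include Egfr, which passed the filter on low counts through CPN-/- alone, so nothing is read from its place in them. Without Egfr, 3 of 7 members passed in the CRY1 line and 0 of 7 in the CRY2 line by edgeR, where 2 had an unadjusted p under 0.05 and DESeq2 gave 0. Both comparisons with CPN-/- share the same CPN-/- libraries. With only the 4 libraries of a comparison in the fit, 1 of 8 members passed in the CRY1 line against CPN-/- (Egfr, on the same terms). Of all genes, 1798 of 13945 passed there. In the 4-library fit of the CRY lines, all 8 members still tested passed. Lrig1, Lrig2, Lrig3, Hbegf and Errfi1 were lower and Erbb2, Erbb3 and Ereg higher in the CRY1 line. That fit called 6838 genes, against 2292 of 14069 with all 6 libraries, so nothing particular to the members is read from it.

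The median log2 difference of the 9 members, Lrig1 and Egfr included, was -0.05 in the CRY1 line, -0.30 in the CRY2 line and -0.26 between the CRY lines. That of all genes was -0.01, -0.01 and 0.00. Lrig1 was chosen for its higher level in CPN-/-, and Egfr passed the filter through CPN-/- alone. Nothing is therefore read from the medians against CPN-/-.

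**Figure D3:**
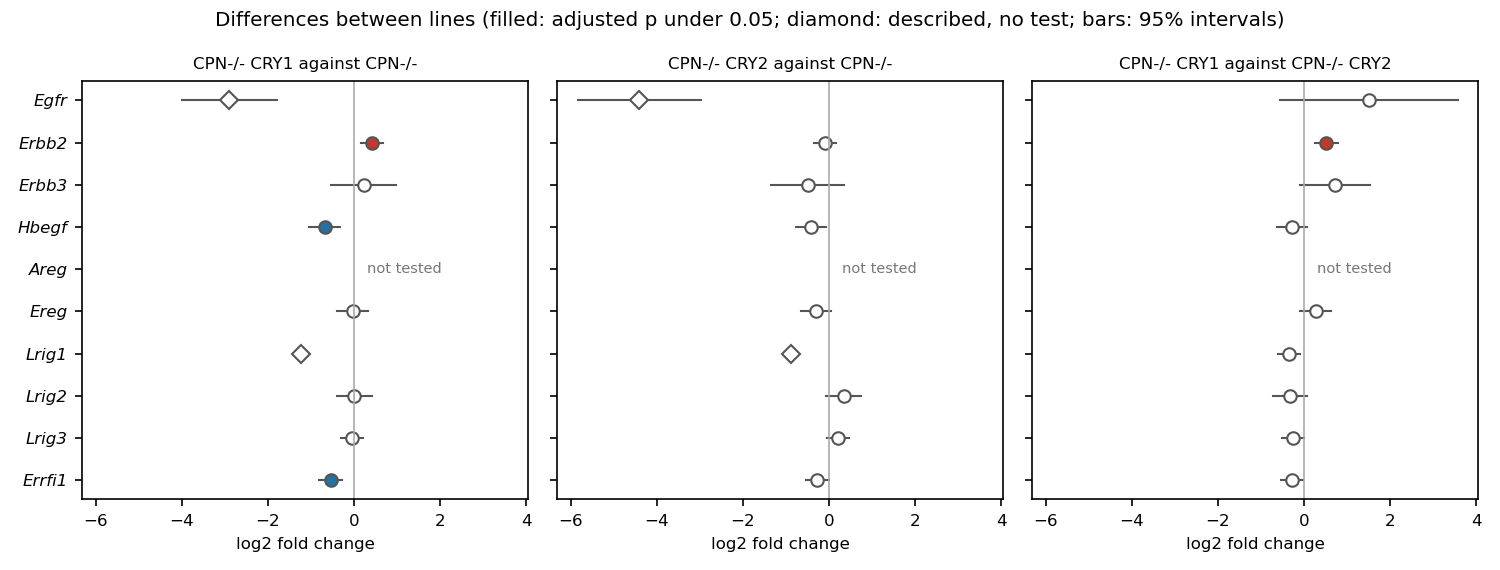
Log2 fold change of the 10 genes (rows) in the 3 comparisons (panels), first line over second; bars are 95% intervals from edgeR, filled points passed an adjusted p under 0.05 (blue lower, red higher), and diamonds are Lrig1 and Egfr against CPN-/-, given without a test. Egfr lies farthest from 0 in both comparisons with CPN-/-, and Erbb2 passed between the CRY lines.

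Per kb of exon, the order of the 10 genes in CPN-/- was Lrig1 (22.7 CPM per kb on average), Errfi1 (15.2), Lrig3 (8.55), Erbb2 (8.29), Hbegf (5.84), Ereg (5.18), Lrig2 (1.48), Erbb3 (0.204), Egfr (0.178) and Areg (0.0833). The neighbours Lrig3 and Erbb2, and Erbb3 and Egfr, overlapped between libraries. In the CRY1 line the first 3 places were Erbb2 (11.1), Errfi1 (10.4) and Lrig1 (9.63). Erbb2 overlapped with Errfi1, and Errfi1 with Lrig1, between libraries. In the CRY2 line they were Errfi1 (12.6), Lrig1 (12.2) and Lrig3 (9.93), and Errfi1 and Lrig1 overlapped. Egfr and Areg had the lowest means in both CRY lines and overlapped there, with 0 to 10 counts per library, so no order is read between them.

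The other genes of the pathway were read from a list of 34, of which 30 were tested. In the CRY1 line against CPN-/-, 2 were lower and 3 higher, where 13.1% of all genes were lower and 11.2% higher. In the CRY2 line against CPN-/-, 1 was lower and none higher, against 4.08% and 2.58% of all genes. Between the CRY lines 3 were lower and 1 higher in the CRY1 line, against 8.57% and 7.72% of all genes. No result about the pathway as a whole is read from these counts. The list's median log2 difference was 0.14, 0.11 and 0.11.

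Btc, the gene of betacellulin, an EGFR and ERBB4 ligand, was the pathway gene lower in both CRY lines. It was at 3.87 and 3.22 CPM in CPN-/-, 2.02 and 1.85 CPM in the CRY1 line, and 2.13 and 1.82 CPM in the CRY2 line. The log2 fold change was -0.88 (adjusted p = 0.017) and -0.85 (adjusted p = 0.047), and both CPN-/- libraries were above the other 4. Egf itself, at 1.57 and 1.73 CPM in CPN-/-, was at 1.30 and 1.26 CPM in the CRY1 line and 2.79 and 2.26 CPM in the CRY2 line. Nrg1, a neuregulin that binds ERBB3, was at 8.80 and 8.14 CPM, 6.97 and 6.58 CPM, and 10.3 and 10.4 CPM in the same order. Both were lower in the CRY1 line than in the CRY2 line, by log2 fold changes of -0.98 for Egf (adjusted p = 0.02) and -0.61 for Nrg1 (adjusted p = 0.018). Of the 8 other ligand genes, 5 were tested, and Tgfa, Epgn and Nrg3 had at most 9 counts per library. Hbegf and Ereg together made up 91.1% to 93.5% of the summed EGFR ligand level per kb in each library.

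Of the 4 genes for ligand release, Adam10, a protease that cuts EGF and betacellulin from the membrane, rose in the CRY1 line by 0.61 on the log2 scale (adjusted p = 0.032). Its level was 172 and 124 CPM in CPN-/- and 224 and 228 CPM in the CRY1 line. Rhbdf1, which encodes an inactive rhomboid that controls the protease ADAM17, rose by 0.36 (adjusted p = 0.031), from 49.3 and 48.4 CPM to 64.2 and 61.4 CPM. Adam17 and Rhbdf2 did not pass in any comparison. Among 7 adaptor and signalling genes, Grb2, whose product links the receptors to RAS activation, fell by 0.40 in the CRY1 line against CPN-/- (adjusted p = 0.021) and was also lower than in the CRY2 line (-0.33, adjusted p = 0.049). Grb2 was at 111 and 105 CPM in CPN-/-, 82.0 and 81.0 CPM in the CRY1 line, and 104 and 101 CPM in the CRY2 line. Among 9 genes for receptor ubiquitination and endosomal sorting, Stam2 rose by 0.42 in the CRY1 line (adjusted p = 0.03). Among 5 other inhibitors, Socs5, of the suppressor of cytokine signalling family, was higher in the CRY1 line than in the CRY2 line by 0.38 (adjusted p = 0.041).

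Each of these pathway genes kept its direction when any single library was left out, but the calls did not all hold. Against CPN-/-, the log2 difference in the CRY1 line stayed between -0.99 and -0.73 for Btc and between 0.40 and 0.86 for Adam10. It was 0.33 to 0.40 for Rhbdf1, -0.43 to -0.36 for Grb2 and 0.33 to 0.52 for Stam2. These 5 calls were lost without either CRY1 library, and those of Adam10, Rhbdf1, Grb2 and Stam2 also without either CRY2 library. Fewer of all genes passed in these fits as well. Btc in the CRY2 line (-0.96 to -0.71) did not pass without any one of the 4 CRY libraries. Neither did Egf (-1.12 to -0.81), Nrg1 (-0.65 to -0.57), Grb2 (-0.36 to -0.31) and Socs5 (0.33 to 0.43) between the CRY lines. A lone library gives no spread for its line, so no test is read from such fits.

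**Figure D4:**
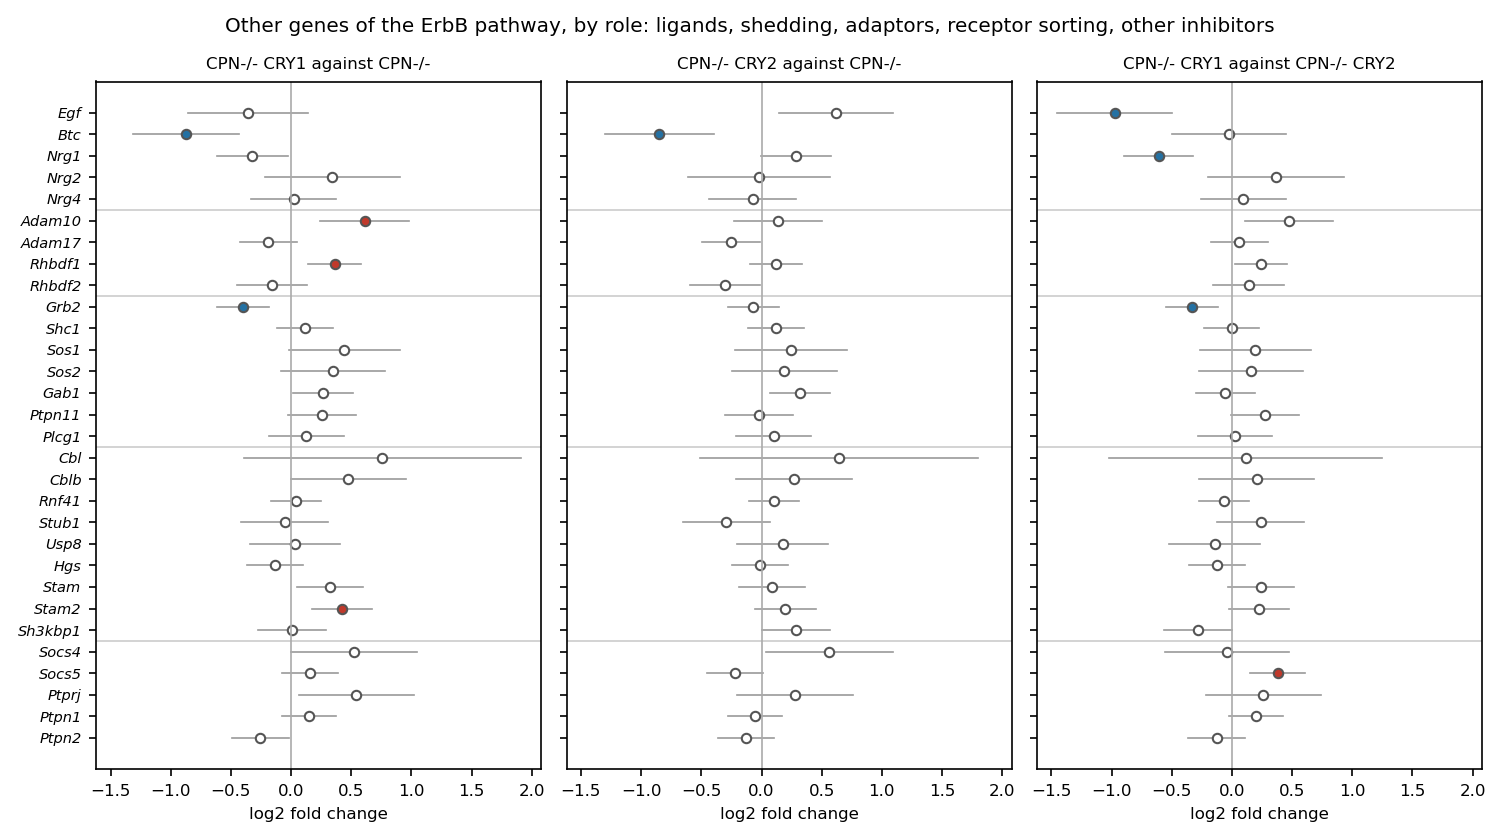
Log2 fold change of the 30 tested genes of the wider ErbB pathway (rows, grouped by role) in the 3 comparisons (panels); bars are 95% intervals, and filled points passed an adjusted p under 0.05 (blue lower, red higher). Btc is lower in both comparisons with CPN-/-, and most intervals include 0.

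The difference between the CPN-/- libraries followed transcript length. Over 12478 genes with a known length, the log2 difference of replicate 1 from replicate 2 had a Spearman correlation with summed exon length of 0.59 in CPN-/-, -0.19 in the CRY1 line and 0.24 in the CRY2 line, a correlation across genes, which are not independent. Egfr and Lrig2 have the longest summed exons of the 10 genes, 11.3 and 11.8 kb. Replicate 1 of CPN-/- exceeded replicate 2 by 0.90 for Egfr and by 0.50 for Lrig2, where the trend over all genes at their lengths was 0.38 and 0.39. For Lrig3 the difference was 0.24 and the trend 0.25, and for Lrig1 they were 0.20 and 0.08. Removing each library's length trend gave Egfr log2 fold changes of -3.07 in the CRY1 line and -4.63 in the CRY2 line against CPN-/-. It took the log2 difference of the CRY2 line from CPN-/- to 0.09 for Lrig2 and 0.05 for Lrig3, from 0.34 and 0.21.

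**Figure D5:**
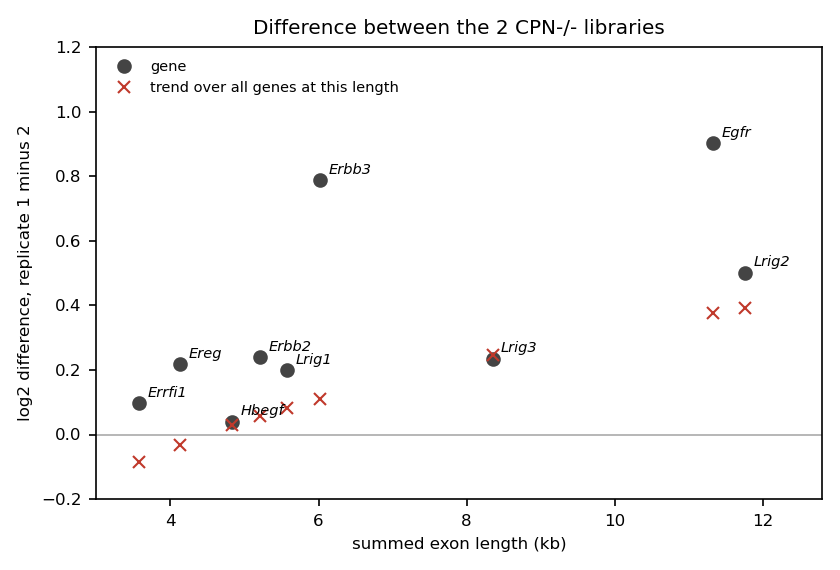
Log2 difference between replicate 1 and replicate 2 of CPN-/- (vertical axis) against summed exon length in kb (horizontal axis) for the 9 tested members; circles are the genes and crosses the trend over all genes at the same length. All 9 differences are above 0, Lrig3 lies on the trend, and Egfr and Erbb3 lie well above it.

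The genes whose profile over the 6 libraries was most like that of Lrig1, among 11408 genes averaging at least 100 counts per library, were Ero1a, P4ha1, Cbx7, Fyb2 and Tlr2. Likeness was the root mean square distance between log2 CPM profiles, each centred on its own mean, and was 0.0412 for Ero1a, 0.059 for P4ha1, 0.0725 for Cbx7, 0.0883 for Fyb2 and 0.101 for Tlr2. Ero1a, an oxidase of the endoplasmic reticulum, was at 157 and 131 CPM in CPN-/-, 59.9 and 61.7 CPM in the CRY1 line, and 84.5 and 75.8 CPM in the CRY2 line. P4ha1, a subunit of the collagen prolyl hydroxylase, was at 669 and 602 CPM, 260.1 and 267 CPM, and 379 and 353 CPM. No other member of the EGF receptor group was among these 5 genes. No transcript of another gene had 95% identity or more over 150 bases with any of the 10 genes.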

How the data were processed

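Each table holds whole counts of reads per NCBI Gene identifier, which the authors deposited without normalization. They mapped stranded, paired-end poly(A) RNA reads to mm10 with STAR and counted them with featureCounts. The annotation and the strand setting are not given in the sources used here, and tool versions are left out. The members, lists and tests were chosen with earlier results of these data known. Named were all 10 members, Cry1 and Cry2, pathway genes that passed a test or stood alone in their role, and the 5 genes likest Lrig1.

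Genes were kept by filterByExpr (limits of 10 counts at the median library size and 15 counts over all libraries). One model with the line as its term was fitted to all 6 libraries in edgeR 4.0.16 (R 4.3.3) with TMM scaling and robust estimation of quasi-likelihood dispersions, and two-sided p-values were adjusted by the Benjamini-Hochberg method over 14069 genes at a threshold of 0.05. The steps were tested on simulated data. Count ratios used exact conditional binomial intervals. Exon numbers, exon lengths, exon overlaps and strands came from GENCODE vM21. Symbols, gene positions and promoters came from RefSeq (GRCm38.p6), and near-identical transcripts from BLAST+ 2.17.0. Symbols were missing for 726 tested genes. The alternatives were other normalizations, filters, samples and thresholds, DESeq2 1.42.0, a replicate block, removal of the trend with transcript length by a loess curve (span 0.5), and each library left out in turn.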

Additional observations from a re-analysis of the deposited data

Results flagged for a closer look

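Erbb2 was flagged because its difference from CPN-/- was not the same in the CRY lines by a direct test. The log2 difference between CPN-/- CRY1 and CPN-/- CRY2, which is also the difference between their changes from the shared CPN-/- libraries, was 0.52 (95% interval 0.26 to 0.78, adjusted p = 0.022 from edgeR). It was higher in 2 of 2 CRY1 libraries than in either CRY2 library. No library could be tested as an outlier in groups of 2.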

How the results depend on the processing

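Areg, with at most 4 counts per library, could not be compared at this depth. Among members, other normalizations and DESeq2's test changed no call. Where Egfr was tested, the member counts against CPN-/- include it, though it passed the filter on low counts through CPN-/- alone. Nothing is read from its place in them. With only the 4 libraries compared, members passing numbered 1 (Egfr) in CPN-/- CRY1 against CPN-/- and 8 between the CRY lines. Genes passing numbered 1798, 473 in CPN-/- CRY2 against CPN-/-, and 6838. At an adjusted p under 0.01, members numbered 1 (Egfr) in CPN-/- CRY1 against CPN-/- and 0 between the CRY lines. Genes numbered 1184, 363 and 854 over the 3 comparisons. At least 10 counts in every library removed Egfr, which left 0 members and 583 genes in CPN-/- CRY2 against CPN-/-. With the length trend removed, 1614 genes passed there, and 3756 genes and 3 members (Erbb2, Lrig1 and Lrig3) between the CRY lines, where the share of calls that were lower went from 52.6% to 46.1%. Leaving out single libraries gave 663 to 8980, 199 to 8046 and 475 to 6897 genes, and 0 to 5, 0 to 5 and 0 to 8 members. A lone library was then assumed to vary like the other lines.

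Signs changed for differences near 0 that had not passed. Lrig2 in CPN-/- CRY1 against CPN-/- was -0.012 with library sizes, -0.017 with upper-quartile factors and -0.19 with the length trend removed. Leaving out single libraries gave it -0.21 (without replicate 2 of CPN-/-) to 0.28, and in the same comparison gave Ereg -0.22 to 0.13, with 0.075 without replicate 1 of CPN-/- and 0.13 without replicate 1 of CPN-/- CRY1. It gave Lrig3 -0.15 to 0.076 (without replicate 1 of CPN-/-) and Erbb3 -0.099 (without replicate 2 of CPN-/-) to 0.72. In CPN-/- CRY2 against CPN-/-, Erbb2 ranged from -0.20 to 0.030 and Erbb3 from -0.82 to 0.0048, the upper values without replicate 1 of CPN-/-. The causes were not tested. The deviations of same-numbered libraries had correlations of -0.079, 0.14 and -0.03 between lines. These show no clear pairing by number, but with 2 libraries per line they cannot tell whether same-numbered preparations were made together. With the replicate block, 3458, 977 and 2188 genes and 4, 1 and 1 members passed, and no member's call changed, while Rhbdf1 against CPN-/- and Grb2 and Socs5 between the CRY lines no longer passed (adjusted p = 0.051, 0.08 and 0.06). The alternatives for pathway genes were added after seeing the data, and each kept its direction under them. With DESeq2, Btc in CPN-/- CRY2 had an adjusted p of 0.087 and Egf between the CRY lines 0.051, and with the length trend removed Grb2 against CPN-/- had 0.053.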

Other observations

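Of the 5 keratin genes among the epithelial markers, 3 had more counts in replicate 2 of CPN-/- CRY2 than elsewhere, and they were singled out after their values were seen. Krt14 had 22 counts there and 0 in the other 5 libraries, Krt5 had 13 counts against 0 to 3, and Krt18 had 9 against 0 or 1. Krt8, at 2 counts against 0 to 4, and Krt19, at 2 against 0 to 3, did not stand apart there, and nor did Cdh1, at 2 against 1 to 4. Epcam had 0 in every library. The 8 epithelial markers summed to 1.89 CPM in that library and to at most 0.37 CPM elsewhere.

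Cbl, the ubiquitin ligase that marks EGF receptors for degradation, was singled out after its values were seen. It had 839 and 186 counts in the CPN-/- libraries, 1001 and 910 in those of the CRY1 line, and 699 and 731 in those of the CRY2 line, so replicate 2 of CPN-/- stood apart from the other 5 libraries at 7.14 CPM against 25.7 to 29.5 CPM. No comparison of Cbl passed the test.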
